A study of Homo sapiens with 8 samples.

Results

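The genes described here are 59 genes of mitosis and the spindle, a list made by function and matched by exact gene symbol in the deposited tables. All 59 were found among the 55075 genes of each table, and all 59 were among the 17471 genes with enough reads to be tested. They cover the cyclins and CDK1 control proteins of mitotic entry (8 genes), mitotic kinases (5), the spindle assembly checkpoint (4) and the chromosomal passenger complex (4). The others are factors of the anaphase-promoting complex (2), sister chromatid cohesion (5), the kinetochore (7), mitotic kinesins (9), spindle assembly (4), cytokinesis (4), chromosome structure (5) and G2/M transcription factors (2).

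RNA was sequenced from HCT116, a human colon cancer line grown in McCoy's 5A medium, and from a derivative knocked out (KO) for FBXW7, which selects substrates for an SCF ubiquitin ligase. Wild-type (WT) and KO cells were each sampled upon heat shock, at 42 °C for 1 h, and after recovery from it, at 37 °C for 2 h. This gave 4 groups of 2 libraries: WT cells at heat shock and at recovery, and KO cells at heat shock and at recovery. The treatment text is the same for every library, and the titles separate heat shock from recovery. All 8 libraries therefore come from heated cells, and unheated cells were not analysed here. The sources used here do not say whether the replicates were separate cultures or whether the KO line is 1 clone, and p-values then measure the spread between libraries alone.

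Mitotic genes are made in waves, with most transcripts building up through G2 and falling after division. Cyclin B with CDK1 drives entry into mitosis, Polo and Aurora kinases build the spindle, and the checkpoint holds back the anaphase-promoting complex until every kinetochore is attached. The promoters of many of these genes carry a CHR element and CCAAT boxes, through which the DREAM complex represses them in resting cells and the MYBL2 and FOXM1 complexes activate them in G2. FBXW7 is best known for marking cyclin E, MYC, JUN and HSF1 for destruction.

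FBXW7 itself, the targeted gene, was at 33.5 and 31.4 CPM (counts scaled to a common library size) in WT heat shock, 23.0 and 21.7 in WT recovery, 17.4 and 14.9 in KO heat shock, and 14.0 and 13.8 in KO recovery. All 4 KO libraries were below all 4 WT libraries, but reads over the gene remained, and summed counts cannot show which part was deleted. The libraries held 15507896 to 34387618 counts each, and replicates correlated at r = 0.994 to 0.997 across genes. All 7 epithelial and colon markers were above 1 CPM in every library, with a summed level of 1936 to 2862 CPM. Fibroblast markers summed to 6.56 to 10.2 CPM, nearly all from COL1A1 with LUM at 0, and immune and erythroid markers to 16.4 to 30.3 CPM, nearly all from CD68 with CD3E at 0.

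Summed over the 59 genes, the level was 7695 and 7841 CPM in WT heat shock and 6381 and 6448 CPM in WT recovery. In KO cells it was 10462 and 10415 CPM at heat shock and 8740 and 8987 CPM at recovery. The sum was thus lower after recovery than at heat shock in both lines, and higher in every KO library than in any WT library. In these bulk samples, fewer cells in G2 or mitosis and less of each transcript per cell cannot be told apart.

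The promoter sequences of members with a clear fall in WT recovery are shown because they carry the sequence elements by which mitotic genes are known to be controlled together. RefSeq promoters (GRCh38.p14) were found for 49 of the 59 genes, and the 250 bases before each start were searched on both strands for TTTGAA or TTCGAA (CHR) and for CCAAT. A CHR was found in 26 of 49 (53.1%), against 13.4% of the 9897 tested genes in the same table. A CCAAT box was found in 37 (75.5%, against 41.5%), and both in 20 (40.8%, against 5.32%). The last 120 bases before the start are given below for 6 genes, those with a motif and the lowest p in WT recovery, on the gene's own strand with CHR and CCAAT letters of either strand in capitals (CCAAT reads ATTGG on the other strand).
PLK1 (chr16:23678769-23678888, + strand): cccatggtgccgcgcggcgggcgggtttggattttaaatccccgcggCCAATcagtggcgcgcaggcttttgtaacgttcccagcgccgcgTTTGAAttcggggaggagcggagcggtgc
CDCA8 (chr1:37692396-37692515, + strand): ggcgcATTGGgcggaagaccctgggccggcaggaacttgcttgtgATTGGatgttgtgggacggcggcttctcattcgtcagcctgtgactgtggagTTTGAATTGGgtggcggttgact
INCENP (chr11:62123891-62124010, + strand): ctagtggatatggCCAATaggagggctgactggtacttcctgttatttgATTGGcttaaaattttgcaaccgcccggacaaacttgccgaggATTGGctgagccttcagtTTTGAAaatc
CDC20 (chr1:43358861-43358980, + strand): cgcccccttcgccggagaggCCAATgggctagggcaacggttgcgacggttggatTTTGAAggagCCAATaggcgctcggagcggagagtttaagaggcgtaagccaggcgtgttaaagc
KIF20A (chr5:138178992-138179111, + strand): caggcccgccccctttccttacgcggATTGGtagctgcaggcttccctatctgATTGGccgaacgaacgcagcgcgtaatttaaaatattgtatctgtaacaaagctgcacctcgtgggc
CCNB1 (chr5:69167030-69167149, + strand): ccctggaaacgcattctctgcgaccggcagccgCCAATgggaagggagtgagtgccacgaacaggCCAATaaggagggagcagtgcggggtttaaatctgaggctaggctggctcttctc
In PLK1 the CHR began 29 bases before the start and the CCAAT box 73 bases before it. CDCA8 and INCENP held a CHR and 3 CCAAT boxes each, and in CDCA8 the CHR and a reverse CCAAT overlap. KIF20A and CCNB1 held 2 CCAAT boxes each and neither TTTGAA nor TTCGAA in the window searched. Other letter forms of the CHR, and bases after the start, were not searched. Members counted below as without a CHR therefore lack only these forms in this window. The median change in WT recovery was -0.19 (log2) in members with a CHR and -0.12 in those without, and in KO recovery -0.23 and -0.48. The median of KO over WT cells was 0.40 with and 0.70 without a CHR at heat shock, and 0.24 and 0.47 at recovery. A match of letters is a description of the window, not of a bound site.

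Levels were compared between genes as CPM per kilobase of the longest transcript, averaged over all 8 libraries. The highest were UBE2C, the ubiquitin-conjugating enzyme of the anaphase-promoting complex, at 159 CPM per kb and its activator CDC20 at 154. CCNB1 (cyclin B1) followed at 145, PLK1 (Polo-like kinase 1) at 125, PTTG1 (securin) at 116 and TPX2, an activator of Aurora A, at 113. KIF15, a kinesin of the spindle, was at 9.27 CPM per kb, and SPC24, a subunit of the NDC80 complex, was lowest at 5.10. The means of the 4 groups ran from 92.7 to 209 CPM per kb for UBE2C, 92.5 to 207 for CDC20 and 87.2 to 186 for CCNB1, and their order differed between groups. UBE2C was above CDC20 in KO heat shock (209 and 154) and below it in WT heat shock (133 and 164).

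The first comparison followed WT cells from heat shock into recovery. No column name states which deposited counts are those of recovery, and this was taken from the order in which each table names its libraries and from the direction of the authors' fold change. With the opposite order every recovery change would change sign, and the comparisons of KO with WT cells would trade conditions. Of the 59 genes, 30 fell and 9 rose at an adjusted p under 0.05 in edgeR's quasi-likelihood test, and 20 did not pass. Among all genes tested, 26% fell and 24.8% rose. The median change of the 59 was -0.30 on the log2 scale, against 0.0092 for all genes tested. Both recovery libraries were below both heat shock libraries in CPM for 38 of the 59 genes and above them for 13, against 37.5% and 37.9% of all genes tested. The fall took in all 4 genes of the passenger complex, both factors of the anaphase-promoting complex and both transcription factors. Values after ± below are standard errors of log2 fold changes with 2 libraries per group.

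PLK1, the kinase of centrosome maturation and mitotic entry, stood at 361 and 282 CPM in WT heat shock and at 127 and 129 CPM in WT recovery. Both recovery libraries were far below both heat shock libraries, and the log2 change was -1.32 ± 0.11 (adjusted p = 3e-08). AURKA, the centrosomal Aurora kinase, went from 143 and 141 to 82.7 and 84.2 CPM, a change of -0.76 ± 0.094 (adjusted p = 2.7e-06). The groups of both kinases did not overlap. PLK4, the kinase of centriole duplication, fell by 0.31. TTK, the checkpoint kinase MPS1, and NEK2, which splits centrosomes, did not pass, with changes of 0.05 and 0.21.

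The passenger complex places Aurora B on centromeres and then on the central spindle. Its borealin subunit CDCA8 was at 134 and 124 CPM in WT heat shock and 59.9 and 59.1 CPM in WT recovery, a log2 change of -1.12 ± 0.094 (adjusted p = 3.2e-08). The scaffold INCENP was at 150 and 116 CPM before and at 67.3 and 68.4 CPM after, a change of -0.96 ± 0.10 (adjusted p = 5.8e-07). In both genes every recovery library was below every heat shock library. The kinase AURKB fell from 111 and 97.9 to 66.1 and 67.8 CPM, by 0.64 ± 0.096 on the log2 scale (adjusted p = 2.3e-05). BIRC5 (survivin) fell by 0.49, the smallest change of the complex.

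CCNB1 was at 308 and 305 CPM in WT heat shock and at 191 and 187 CPM in WT recovery, a log2 change of -0.70 ± 0.096 (adjusted p = 8.9e-06). CCNB2 (cyclin B2) went from 136 and 137 to 89.3 and 89.6 CPM, a change of -0.61 ± 0.092 (adjusted p = 2.3e-05). Replicates of both cyclins lay close together and the groups were well apart. CCNA2 (cyclin A2) fell by 0.30, WEE1, the inhibitory kinase of CDK1, by 0.34, and CDCA3, a trigger of mitotic entry, by 0.58. CDK1 moved the other way, from 83.0 and 108 to 132 and 122 CPM, a rise of 0.42. The phosphatases CDC25B and CDC25C, which activate CDK1, did not pass, with changes of 0.02 and -0.03.

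CDC20 was at 313 and 270 CPM in WT heat shock and 171 and 157 CPM in WT recovery, a log2 change of -0.82 ± 0.097 (adjusted p = 1.6e-06). UBE2C changed from 123 and 119 to 86.5 and 82.9 CPM, by -0.52 ± 0.094 (adjusted p = 1.7e-04). Neither gene's groups overlapped. MYBL2 (B-Myb) was at 211 and 168 CPM before and 96.2 and 89.1 CPM after, a change of -1.02 ± 0.099 (adjusted p = 1.8e-07). FOXM1 was at 195 and 163 CPM before and 106 and 111 CPM after, a change of -0.72 ± 0.10 (adjusted p = 1.2e-05). Both transcription factors were thus lower in each recovery library than in each heat shock library.

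In the other groups the changes were mixed. Of 9 kinesins 4 fell: KIF20A, a motor of cytokinesis, KIF23, the central spindle motor, KIF18A, which limits microtubule length, and the chromokinesin KIF4A. KIF20A went from 174 and 160 to 96.9 and 102 CPM, a log2 change of -0.75 ± 0.096 (adjusted p = 4.4e-06). KIF20B and KIF14, both cytokinesis kinesins, rose, KIF20B from 55.7 and 75.4 to 98.0 and 102 CPM, a change of 0.62 ± 0.11 (adjusted p = 1.3e-04). Among kinetochore genes, the motor CENPE rose from 71.0 and 91.2 to 115 and 130 CPM, a change of 0.61 ± 0.11 (adjusted p = 1e-04). NUF2, of the NDC80 complex, rose by 0.38, while the SPC24 and SPC25 subunits of that complex fell by 0.88 and 0.52.

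Spindle pole proteins also split, with ASPM and HMMR higher by 0.36 and 0.24 and TPX2 lower by 0.50. In cytokinesis, RACGAP1, a subunit of centralspindlin, and PRC1, the microtubule bundler, fell by 0.73 and 0.53. ECT2, the exchange factor that activates RhoA, rose by 0.45. SMC4, a condensin subunit, rose by 0.41 and CDCA2, which targets a phosphatase to chromatin, fell by 0.36. Of the checkpoint genes, BUB1B (BUBR1) and BUB3 fell by 0.34 and 0.38. PTTG1 and CDCA5 (sororin), which guard sister chromatid cohesion, fell by 0.45 and 0.39. The 9 genes that rose were ASPM, CDK1, CENPE, ECT2, HMMR, KIF14, KIF20B, NUF2 and SMC4. A matched pair is the heat shock and recovery library of the same line and replicate number. With WT heat shock or WT recovery replicate 1 left out, a single matched pair remained in WT cells. Fewer of the members and of all genes then rose, and fewer of all genes fell. The log2 change in CPM had the same sign in both WT pairs for 51 of the 59 genes.

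**Figure D1:**
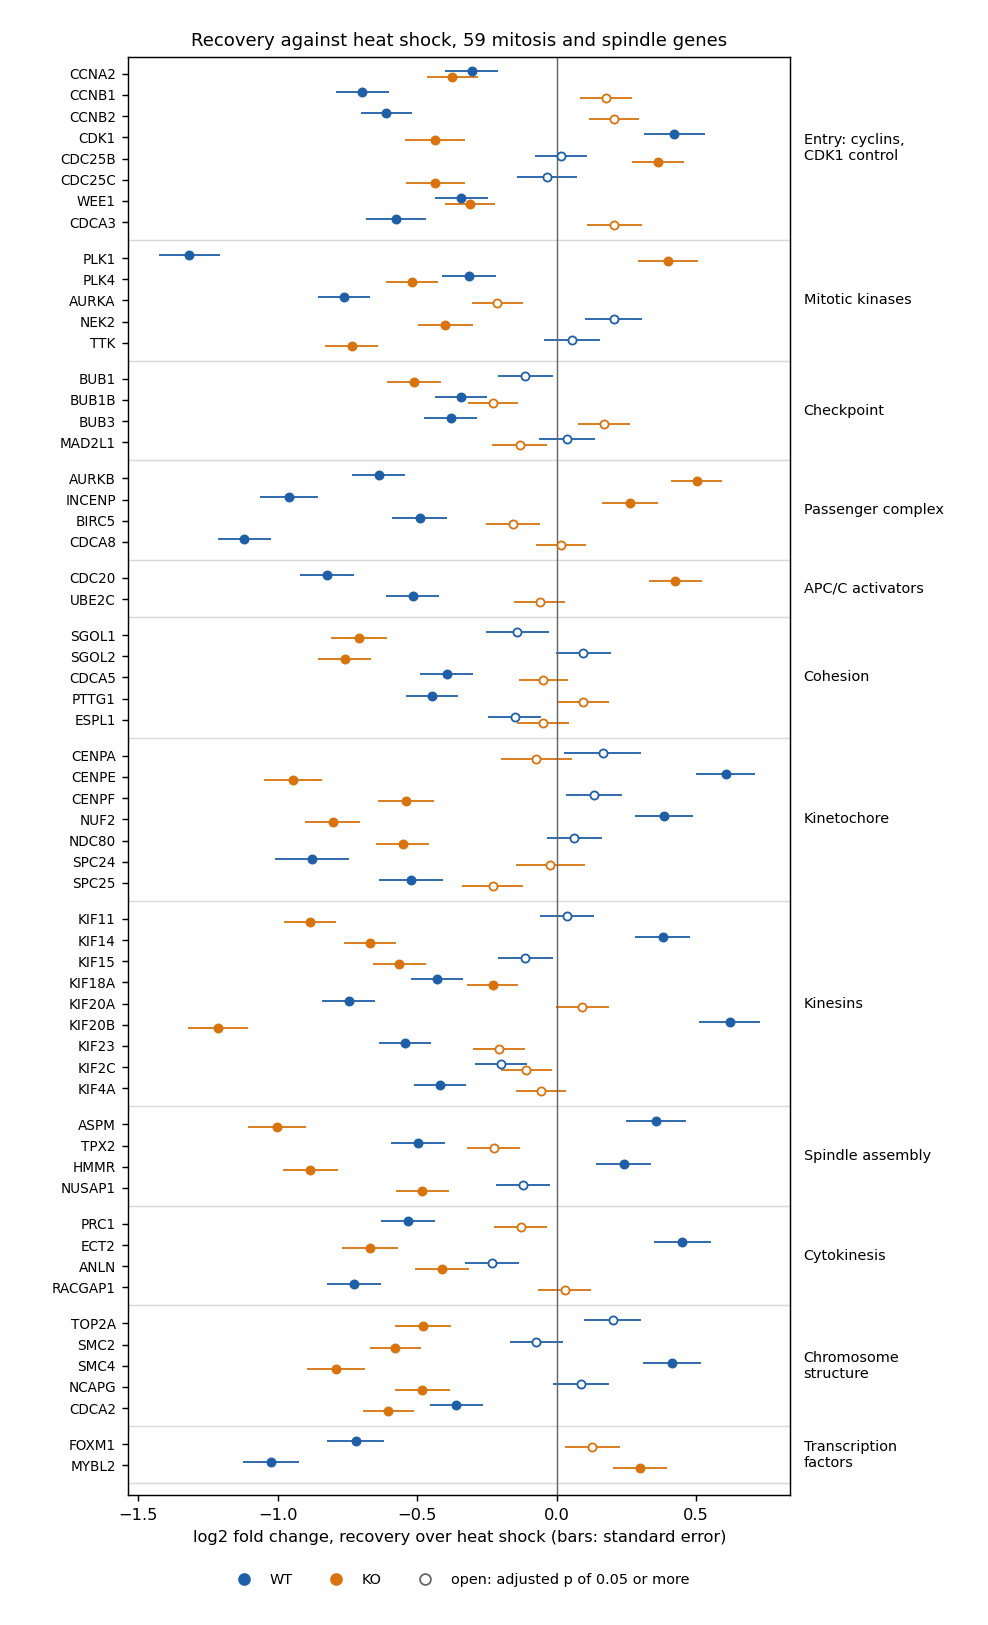
Log2 fold change of recovery over heat shock for each of the 59 genes, grouped by role, in WT (blue) and KO cells (orange), with bars of 1 standard error and open points for an adjusted p of 0.05 or more. PLK1 (-1.32) and CDCA8 (-1.12) lie farthest to the left in WT cells, and KIF20B (-1.21) and ASPM (-1.0) in KO cells.

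The second comparison was the same recovery in KO cells. Here 29 of the 59 genes fell, 6 rose and 24 did not pass (edgeR's quasi-likelihood test), against 21.1% of all tested genes that fell and 20.6% that rose. The median change was -0.23, against -0.0231 for all genes tested. The CPM of both recovery libraries lay below both heat shock libraries for 40 genes and above for 13, against 38.4% and 35.7% of all genes tested. Falls took in 5 of 5 chromosome structure genes, 3 of 4 spindle assembly genes, 3 of 5 mitotic kinases, 4 of 7 kinetochore genes, 5 of 9 kinesins and 4 of 8 entry genes. With GC and length offsets these were 2 of 5, 3 of 4, 3 of 5, 3 of 7, 3 of 9 and 2 of 8. No passenger gene, transcription factor or factor of the anaphase-promoting complex was called as a fall, but with offsets UBE2C fell by 0.38 and BIRC5 by 0.30. With KO heat shock or KO recovery replicate 1 left out, a single matched pair remained in KO cells. Fewer of the members and of all genes then passed. With replicate 2 of either KO group left out, fewer of the members and of all genes rose, and fewer of all genes fell. The log2 change in CPM had the same sign in both KO pairs for 54 of the 59 genes.

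KIF20B stood at 193 and 187 CPM in KO heat shock and at 74.2 and 90.6 CPM in KO recovery, a log2 change of -1.21 ± 0.11 (adjusted p = 7e-08). ASPM, which organises spindle poles, was at 187 and 182 CPM before and 85.1 and 99.7 CPM after, a change of -1.0 ± 0.11 (adjusted p = 6.3e-07). CENPE was at 198 and 177 CPM before and 90.0 and 104 CPM after, a change of -0.95 ± 0.10 (adjusted p = 9.8e-07). In all 3 genes the recovery libraries were well below the heat shock libraries. KIF11, the kinesin that pushes spindle poles apart, was at 162 and 169 CPM before and 87.2 and 92.4 CPM after, a change of -0.88 ± 0.093 (adjusted p = 6.3e-07). HMMR was at 118 and 118 CPM before and 59 and 69.2 CPM after, a change of -0.88 ± 0.098 (adjusted p = 1.3e-06).

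NUF2, at 53.2 and 52.7 CPM in KO heat shock, was at 29.1 and 31.6 CPM in KO recovery, a change of -0.80. Its partner NDC80 fell by 0.55 and the kinetochore protein CENPF by 0.54. The shugoshins SGOL1 and SGOL2, which protect centromeric cohesion, fell by 0.71 and 0.76. TTK fell from 130 and 142 to 77.7 and 85.7 CPM, by 0.73 on the log2 scale, and BUB1, the checkpoint kinase, by 0.51. The condensin subunits SMC4, SMC2 and NCAPG fell by 0.79, 0.58 and 0.48, and TOP2A, the topoisomerase that untangles chromosomes, by 0.48. All of these were lower in each recovery library than in each heat shock library.

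The 6 genes that rose in KO recovery were AURKB, CDC20, PLK1, CDC25B, MYBL2 and INCENP. AURKB went from 82.4 and 86.0 to 121 and 117 CPM, a change of 0.50 ± 0.093 (adjusted p = 2.7e-04). CDC20 went from 264 and 282 to 369 and 365 CPM, a change of 0.43, and PLK1 from 282 and 294 to 403 and 357 CPM, a change of 0.40. Leaving out either replicate 1 library of KO cells leaves replicate 2 as the only matched pair, so both are nearly the same check. CDC20, PLK1, CDC25B, MYBL2 and INCENP were not among the 20 members with the lowest p in KO recovery. How their calls depended on replicate 1 is not given here. Among those 20, the calls of AURKB, BUB1, CENPF, KIF15 and PLK4 depended on replicate 1. In replicate 2 alone their log2 changes in CPM were 0.45, -0.46, -0.41, -0.45 and -0.44. In replicate 1 they were 0.56, -0.56, -0.67, -0.68 and -0.60. CCNB1, at 363 and 350 CPM before and 408 and 398 CPM after, changed by 0.18 and did not pass.

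**Figure D2:**
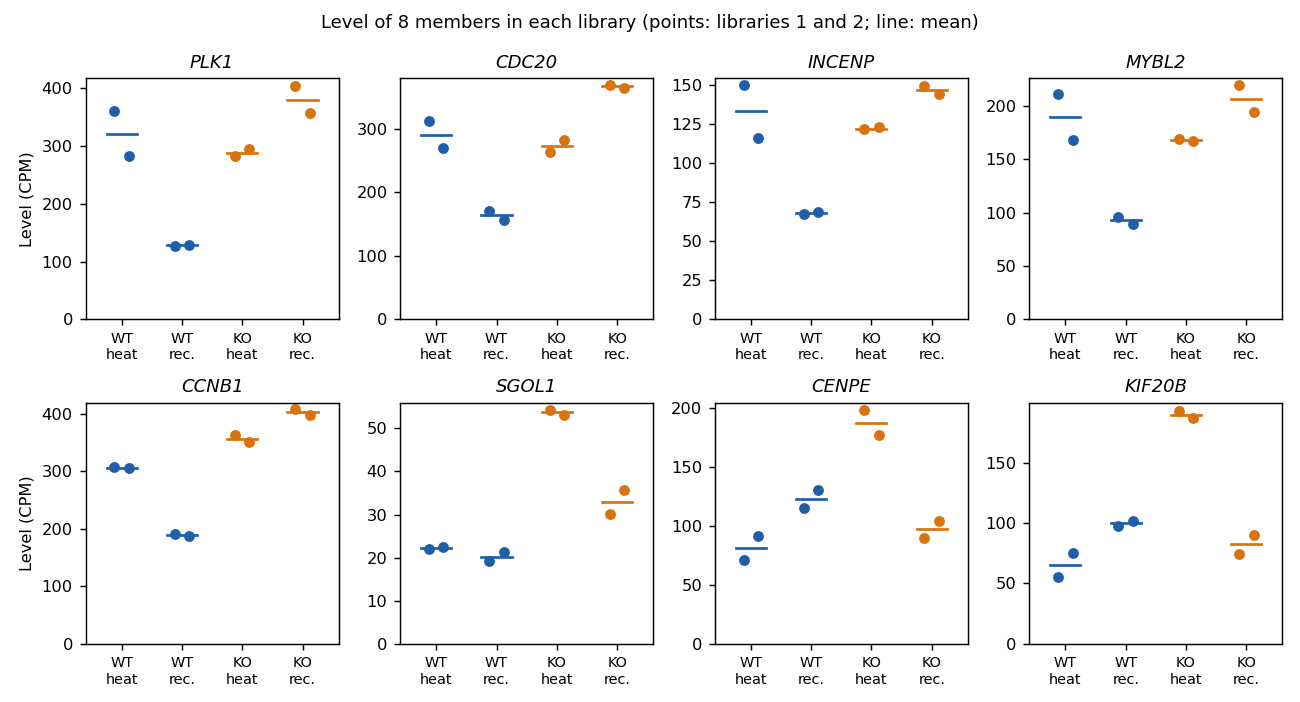
Level (CPM, linear axis from 0) of 8 of the genes in each of the 8 libraries, with points for replicates 1 and 2 and a line for their mean, in WT (blue) and KO cells (orange) at heat shock and recovery. PLK1 falls to 127 and 129 CPM only in WT recovery, while CENPE and KIF20B stand highest in KO heat shock.

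Set beside each other, 5 genes fell in both lines: CCNA2, CDCA2, KIF18A, PLK4 and WEE1. A further 5 fell in WT and rose in KO cells (AURKB, CDC20, INCENP, MYBL2 and PLK1), and all 9 genes that rose in WT cells fell in KO cells. With the GC and length offsets described below, none of these 14 genes kept opposite calls in the lines, and of the 5 that fell in both, CCNA2 and CDCA2 did so again. Counting genes not called so before, 12 members fell in both lines with offsets. With offsets 4 other genes, BUB3, CCNB1, CCNB2 and MAD2L1, fell in WT and rose in KO cells. BUB3 changed by -0.67 in WT and 0.57 in KO cells with offsets, and CCNB1 by -0.79 and 0.24. Without offsets another 20 fell in WT cells and did not pass in KO cells, 12 of them also with offsets. In 15 genes a fall passed in KO and not in WT cells, and CDC25B rose in KO and did not pass in WT cells. With offsets only CDC25C, NDC80, NEK2 and TTK of the 15 had this pair of calls. BUB1, KIF11, KIF15, NUSAP1, SGOL1 and SGOL2 then fell in both lines, and ANLN, NCAPG and SMC2 in WT cells only. CENPF and TOP2A passed in neither line with offsets, and CDC25B rose in WT and did not pass in KO cells. For BUB1B, SPC25 and TPX2 among the 20, and ANLN among the 15, the difference of the responses did not pass without offsets. With offsets it passed for each of them, at 0.47, 0.51, 0.39 and 0.47. Without offsets the other 4 (CENPA, the centromere histone, ESPL1, the separase, KIF2C, a microtubule depolymerase, and MAD2L1, the checkpoint protein MAD2) passed in neither. How many of all genes tested had each of these pairs of calls was not counted, so the pairs only describe the members.

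The difference of the recovery responses, KO minus WT, was tested as an interaction. It was positive in 23 of the 59 genes and negative in 23, with 13 not passing, against 28.5% and 27.8% of all genes tested. The median was 0.03, against -0.0318 over all genes. PLK1 had the most positive difference, 1.72 ± 0.15 (adjusted p = 4.6e-08), followed by MYBL2 at 1.32 ± 0.14 (adjusted p = 2.6e-07) and CDC20 at 1.25 ± 0.14 (adjusted p = 4.1e-07). The passenger genes INCENP, AURKB and CDCA8 followed at 1.22, 1.14 and 1.14, and BIRC5 was at 0.33. At the other end, KIF20B differed by -1.83 ± 0.15 (adjusted p = 2.2e-08), CENPE by -1.55 ± 0.15 (adjusted p = 8.6e-08) and ASPM by -1.36 ± 0.15 (adjusted p = 4.9e-07).

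These responses moved with the base composition of the transcripts. GC content of the 59 genes ran from 34.2% to 60.5% (median 42.5%, against 49% over all genes tested with a known transcript). Over the 59 genes, the interaction correlated with GC content at r = 0.8, the WT response at r = -0.703 and the KO response at r = 0.819. Over all genes tested these were 0.332, -0.228 and 0.33. The genes share the same 8 libraries and are not independent, so these are descriptions. Replicates of a single group also differed with GC. Over the 59 genes, the log2 difference of replicate 2 from replicate 1 correlated with GC at r = -0.762 for WT cells at heat shock and -0.348 at recovery, and at 0.436 and -0.565 for KO cells. KIF20B, CENPE and ASPM are AT-rich and PLK1, CDC20 and MYBL2 are GC-rich.

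Within ranges of GC content, the median interaction was -0.92 in the 17 members under 40% GC and -0.78 in all tested genes of that range. It was -0.18 and -0.44 from 40% to 45% (19 members), 0.38 and -0.08 from 45% to 50% (8 members), and 0.85 and 0.45 at 50% and above (15 members). In WT recovery, members at 50% GC and above had a median of -0.64, against -0.24 for all genes there. From 40% to 45% GC the members' median was -0.30, against 0.21. From 45% to 50% GC the medians were -0.47 and 0.04, and under 40% GC they were 0.24 and 0.36, so the members' median lay below that of all genes in each of the 4 ranges.

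Counts were refitted with offsets for GC content and transcript length. For each library, log2 CPM relative to each gene's mean over all libraries was fitted smoothly on transcript length, then on GC content. A response of the cells that itself follows GC content or length would be removed too, and the offsets cannot tell it from a technical trend. Genes without a known transcript got no such offset. With offsets 39 of 59 genes fell in WT recovery and 1 rose (24.2% and 23.6% of all genes tested). Of the 30 falls, 29 were found again, all but CDCA5, while 0 of the 9 rises were. PLK1 changed by -1.0 with offsets, CDCA8 by -0.92 and CCNB1 by -0.79, while KIF20B changed by 0.07 and CENPE by 0.08. In KO recovery 24 fell and 4 rose (16.1% and 18.4% of all genes), with 19 of the 29 falls and 0 of the 6 rises found again. KIF20B still fell by 0.59 in KO cells and NUF2 by 0.62, while PLK1 changed by 0.11 and AURKB by 0.07.

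With offsets the interaction was positive in 26 genes and negative in 12 (26.1% and 23.4% of all genes). The same call was made for 17 of the 23 positive and 11 of the 23 negative genes. BUB3 then had the most positive difference, 1.25, against 0.55 without offsets. PLK1 kept a difference of 1.10, CCNB1 one of 1.03 and RACGAP1 one of 1.02. NUF2 was the most negative at -0.79, and KIF20B kept a difference of -0.67. SGOL2, at -0.86 without offsets, was at 0.12 and did not pass (adjusted p = 0.341). After offsets the interaction correlated with GC at r = 0.313 over the 59 genes. What part GC content plays in the changes of single genes was not tested beyond this.

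**Figure D3:**
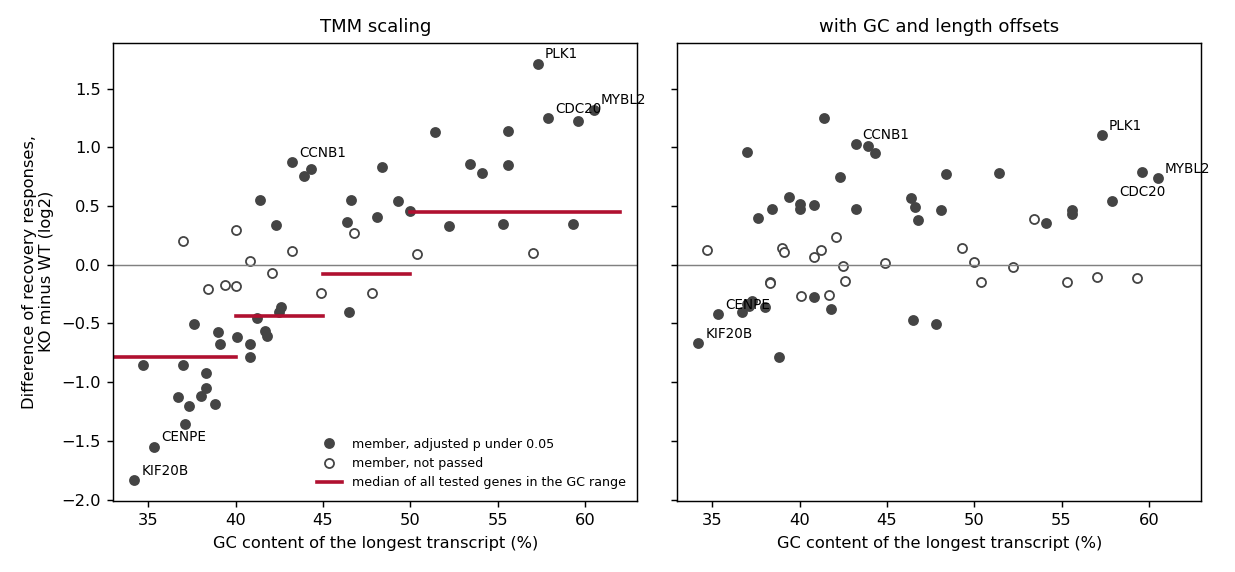
Difference of the recovery responses (log2, KO minus WT) of the 59 genes against GC content of the longest transcript in percent, with TMM scaling (left) and with GC and length offsets (right). Filled points passed an adjusted p of 0.05, and red lines, drawn on the left only, give the median of all tested genes in each GC range. KIF20B goes from -1.83 to -0.67 and PLK1 from 1.72 to 1.10.

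KO cells were then compared with WT cells at heat shock. Of the 59 genes, 39 were higher in KO cells, 5 were lower and 15 did not pass (edgeR's quasi-likelihood test), against 27.4% higher and 28.2% lower among all genes tested. The median difference was 0.48, against -0.0303 over all genes. In CPM both KO libraries were above both WT libraries for 41 genes and below for 8, against 37.3% and 38.8% of all genes tested. Higher in KO cells were 8 of 9 kinesins, all 4 spindle assembly genes and all 5 chromosome structure genes. With GC and length offsets these were 6 of 9, 3 of 4 and 5 of 5. BIRC5 was the single passenger gene that was higher, with and without offsets. FOXM1 and MYBL2 did not pass, at 0.12 and -0.18, but with offsets both were higher, by 0.33 and 0.19. The number of members lower in KO cells changed when 1 library was left out. It rose without either WT heat shock library and fell without KO heat shock replicate 1.

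KIF20B, at 193 and 187 CPM in KO and 55.7 and 75.4 CPM in WT heat shock, had the largest difference, 1.54 ± 0.12 (adjusted p = 2.3e-07). SGOL1 was at 54.2 and 53.2 CPM in KO and 21.9 and 22.5 CPM in WT, a difference of 1.27 ± 0.10 (adjusted p = 1.9e-07). For both genes the KO libraries stood well above the WT libraries. CENPE differed by 1.21 ± 0.12 (adjusted p = 1.3e-06), SGOL2 by 1.11 ± 0.10 (adjusted p = 7e-07) and TTK by 1.10 ± 0.10 (adjusted p = 7.1e-07). CDK1 was at 201 and 206 CPM in KO and 83.0 and 108 CPM in WT, a difference of 1.09 ± 0.11 (adjusted p = 1.7e-06). CCNA2, at 223 and 231 against 123 and 129 CPM, differed by 0.85.

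The 5 genes lower in KO heat shock were CDC25B, SPC24, CCNB2, AURKB and RACGAP1. CDC25B was at 166 and 168 CPM in KO and 303 and 298 CPM in WT cells, a difference of -0.85 ± 0.077 (adjusted p = 6.2e-07). The KO libraries were far below the WT libraries, with replicates close together. SPC24, CCNB2, AURKB and RACGAP1 differed by -0.74, -0.34, -0.31 and -0.23. PLK1 did not pass, at 282 and 294 CPM in KO and 361 and 282 CPM in WT, with a difference of -0.16.

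At recovery 37 genes were higher in KO than in WT cells, 6 were lower and 16 did not pass (edgeR's quasi-likelihood test), against 31.8% higher and 31.3% lower among all genes tested. The median difference was 0.47, against -0.0104 over all genes. Both KO libraries were above both WT libraries in CPM for 43 genes and below for 12, against 41.4% and 42.1% of all genes tested. All 4 passenger genes, both factors of the anaphase-promoting complex and both transcription factors were now higher, as were 5 of 9 kinesins and 0 of 7 kinetochore genes. With offsets the first 3 groups were called as before, while 8 of 9 kinesins and 2 of 7 kinetochore genes (CENPF and SPC25) were higher. With upper-quartile scaling, which moved the median of all genes to -0.18, 32 genes were higher and 12 lower. Of all 17471 genes tested, 4212 were then higher and 6852 lower.

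PLK1 was at 403 and 357 CPM in KO and 127 and 129 CPM in WT recovery, the largest difference at 1.57 ± 0.11 (adjusted p = 3.2e-08). CDC20 was at 369 and 365 CPM in KO and 171 and 157 CPM in WT, a difference of 1.16 ± 0.092 (adjusted p = 9.4e-08). MYBL2 was at 219 and 194 against 96.2 and 89.1 CPM, a difference of 1.16 ± 0.11 (adjusted p = 4.3e-07). Each KO library of these 3 genes was above both WT recovery libraries. UBE2C, INCENP, CCNB1, AURKA and CDCA8 differed by 1.11, 1.11, 1.09, 1.07 and 1.04. CDCA5 differed by 1.03, FOXM1 by 0.97 and KIF18A by 0.86.

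The 6 genes lower in KO recovery were HMMR, CDC25C, CDC25B, SMC4, CENPE and ASPM. HMMR was at 59 and 69.2 CPM in KO and 101 and 106 CPM in WT, a difference of -0.69, and CDC25B at 216 and 213 against 304 and 303 CPM, a difference of -0.50. CDC25B was thus lower in KO cells in both conditions, the single member for which both tests were passed downwards. In the other direction 24 genes were higher in KO cells in both conditions, among them CCNA2, CCNB1, WEE1, AURKA, UBE2C, BIRC5, TPX2 and ANLN, the actin-binding anillin of the cleavage furrow. A total of 4 (ASPM, CENPE, HMMR and SMC4) were higher at heat shock and lower at recovery, and 3 (AURKB, CCNB2 and RACGAP1) were lower at heat shock and higher at recovery. With offsets 0 of the 4 and 2 of the 3 (CCNB2 and RACGAP1) had the same pair of calls, and AURKB differed by 0.15 at heat shock and did not pass. BUB3 and SPC25 were also lower at heat shock and higher at recovery with offsets. The share of all genes tested with each pair of calls was not counted, so these pairs only describe the members.

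**Figure D4:**
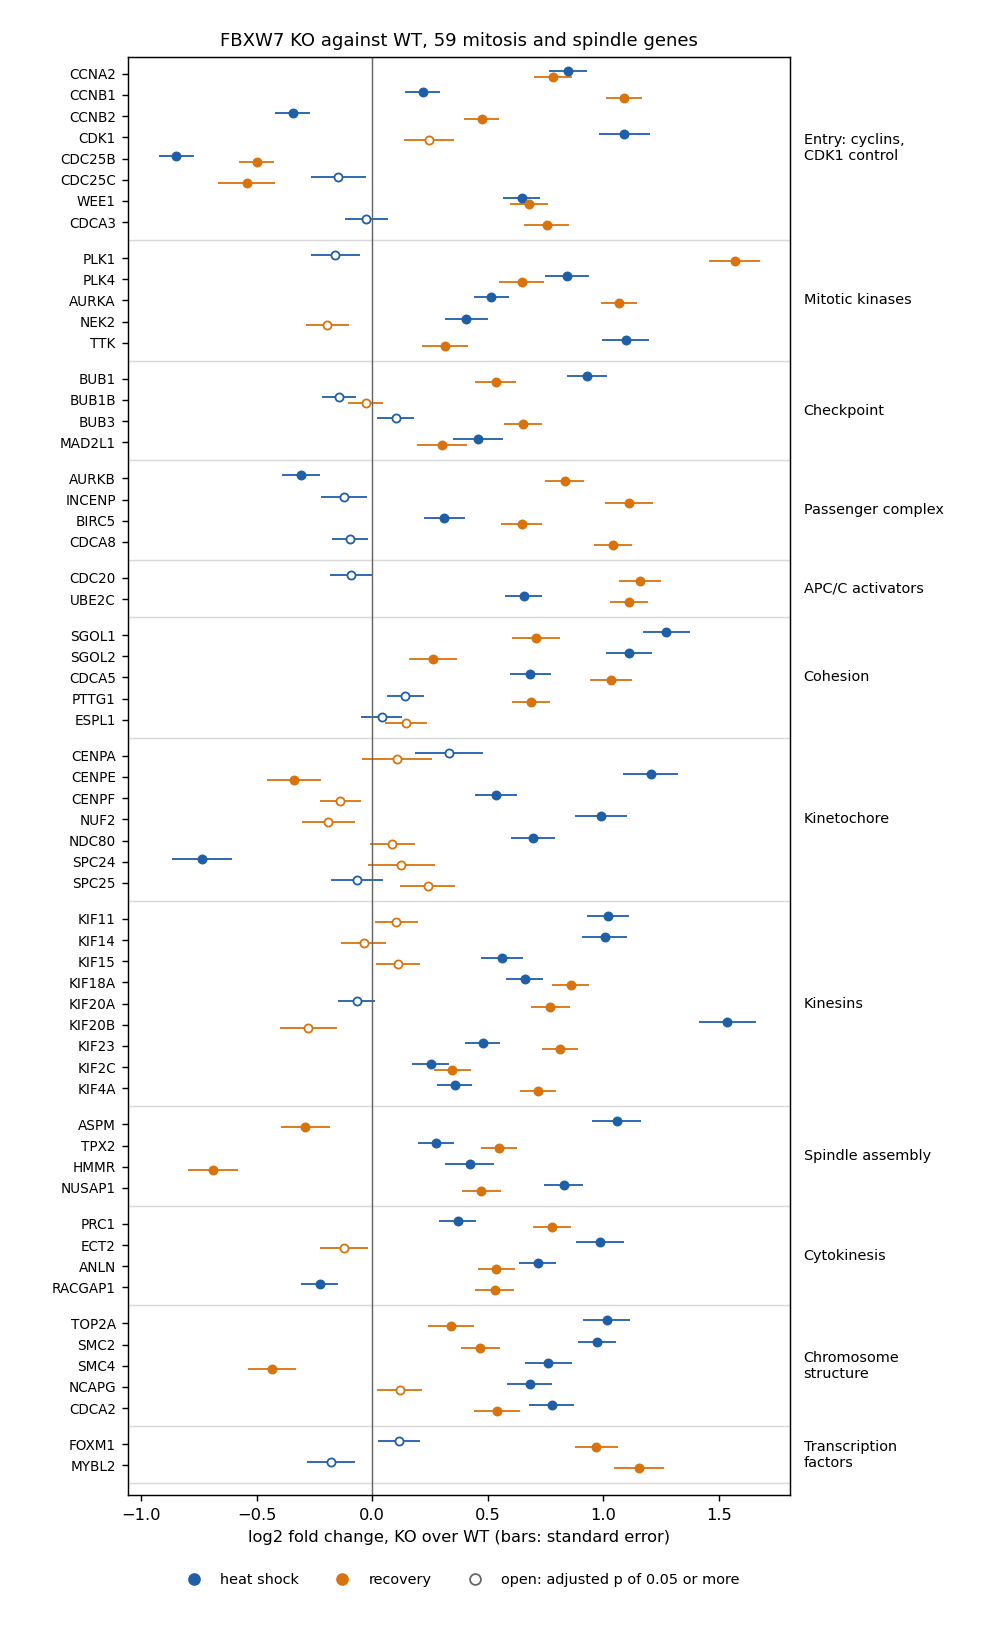
Log2 fold change of KO over WT cells for the 59 genes, grouped by role, at heat shock (blue) and recovery (orange), with bars of 1 standard error and open points for an adjusted p of 0.05 or more. KIF20B (1.54) lies farthest to the right at heat shock and PLK1 (1.57) at recovery, and CDC25B lies to the left in both.

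With GC and length offsets, 40 genes were higher and 7 lower in KO cells at heat shock (26.4% and 25.7% of all genes), and 44 higher and 3 lower at recovery (33% and 31.9%). Of the genes higher in KO cells, 33 of 39 at heat shock and 37 of 37 at recovery were found again. Of those lower, 4 of 5 were found again at heat shock, and at recovery 3 of 6, namely CDC25B, CDC25C and HMMR. Of the 24 genes higher in both conditions, 21 were so with offsets too. KIF20B differed by 0.81 at heat shock with offsets and SGOL1 by 1.03, and PLK1 by 1.30 at recovery.

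**Figure D5:**
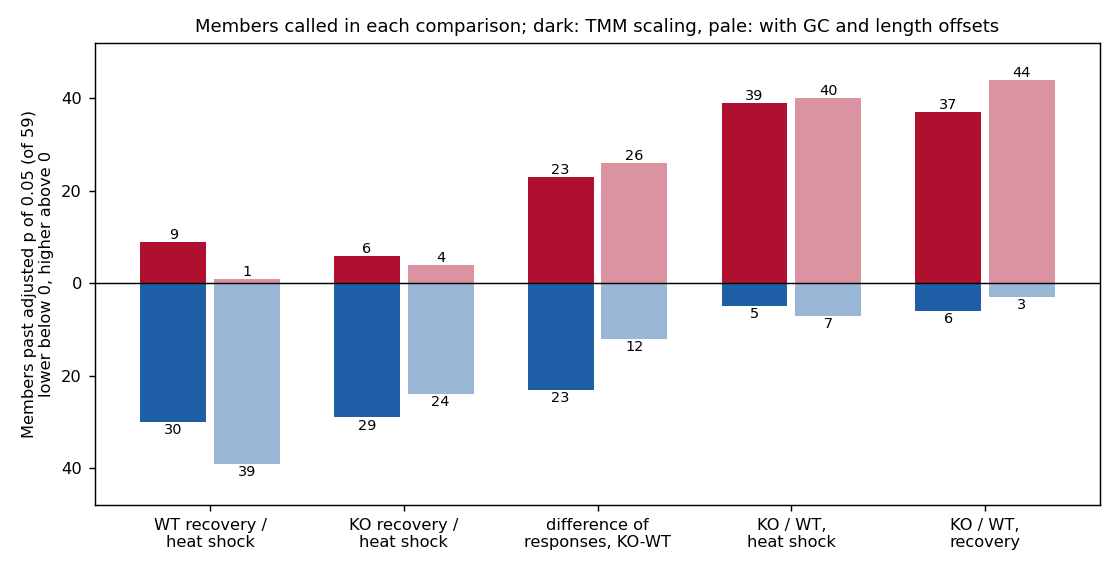
Number of the 59 genes called higher (red, above 0) and lower (blue, below 0) in each of the 5 comparisons, with TMM scaling (dark) and with GC and length offsets (pale). Falls in WT recovery go from 30 to 39 and rises from 9 to 1, while genes higher in KO cells at recovery go from 37 to 44.

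The rest of the mitotic machinery was read from a list of 116 other genes: the anaphase-promoting complex (17), condensin and cohesin (14), other kinetochore (30), spindle and centrosome (25) and G2/M genes (19), and the DREAM and MYB-MuvB complexes (11). In WT recovery 51 of 116 fell and 18 rose, against 26% and 24.8% of all genes tested, and with offsets 57 fell and 13 rose. In KO recovery 54 fell and 20 rose, against 21.1% and 20.6%, and with offsets 37 fell and 21 rose. KO cells were higher for 66 and lower for 17 at heat shock, against 27.4% and 28.2%, and with offsets for 58 and 18. At recovery they were higher for 72 and lower for 12, against 31.8% and 31.3%, and with offsets for 81 and 9. The medians were -0.18, -0.20, 0.31 and 0.37, against 0.0092, -0.0231, -0.0303 and -0.0104 over all genes tested. In WT recovery KPNA2, an importin, fell by 1.33, FZR1, the other activator of the anaphase-promoting complex, by 1.29, CCNF (cyclin F) by 1.25 and ZWINT, a kinetochore protein, by 1.18. ANAPC11, the catalytic RING subunit of the anaphase-promoting complex, rose by 1.38 in KO recovery. At recovery ZWINT and KPNA2 were each higher in KO cells by 1.65.

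Reads of some members may come in part from neighbouring genes. The library kit keeps strand, but the sources used here do not say whether strand was used in counting. Exons of 24 members overlap another gene, and in some cases that gene had more counts: over all libraries FAM53C had 16495 and CDC25C 3887, and C2orf18 had 11643 and CENPA 3544. The values of CDC25C, CENPA and SPC24 are therefore uncertain, as are in part those of CCNA2 and KIF20A, whose overlapping genes EXOSC9 and CDC23 had 17386 and 14019 counts beside 30974 and 27978.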

How the data were processed

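CASAVA, TopHat and hg19 are named in the submitters' processing notes. The sources used here give neither the counting program and its strand setting nor the kind of RNA (poly-A selected or Ribominus) of each library. The deposited tables hold whole-number read counts per Ensembl gene for 2 libraries each, which the authors did not normalize. Their deposited log2 fold change served only to check the order of the count columns. Genes listed as NA were set to 0.

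Counts were tested with edgeR 4.0.16 (R 4.3.3), using filterByExpr, TMM scaling, the quasi-likelihood F test and Benjamini-Hochberg adjustment over all 17471 genes, at an adjusted p of 0.05. All 8 libraries entered each fit. Recovery comparisons had the matched pair of line and replicate number as a block, as the series text describes (2 residual degrees of freedom). Comparisons of lines had no block (4 degrees of freedom). Standard errors are the fold change divided by the square root of F. CPM values use TMM-scaled totals. Transcript length and GC content came from GENCODE 29 (GRCh38), for 95.4% of tested genes. The test was checked on simulated counts with a fixed spread and no pair effect or GC trend. That check therefore does not cover the GC trends seen here.

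The 59 members and the other gene lists were chosen with earlier results of these data known. Any member could be named. Full statistics were kept to the 20 members, and values of other mitotic genes to the 4, with the lowest p in a comparison. Alternatives were RLE and upper-quartile scaling, DESeq2 1.42.0, no filter, each library left out, GC and length offsets, and other blocks. Deviations of paired libraries from their group means correlated at r = -0.0144 in WT and -0.0259 in KO cells. Not every gene that overlaps a member is reported here.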

Additional observations from a re-analysis of the deposited data

Results flagged for a closer look

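The recovery response differed between KO and WT cells for the 20 members with the lowest p in the interaction test, which is why they are set out here (edgeR's quasi-likelihood test, KO minus WT on the log2 scale). The response was more positive in KO cells for PLK1 (1.72), MYBL2 (1.32), CDC20 (1.25), INCENP (1.22), AURKB (1.14), CDCA8 (1.14), CCNB1 (0.87), FOXM1 (0.85), KIF20A (0.84) and CCNB2 (0.82). With GC and length offsets each of these 10 still passed, with differences from 0.43 (AURKB) to 1.10 (PLK1).

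The response was more negative in KO cells for KIF20B (-1.83), CENPE (-1.55), ASPM (-1.36), SMC4 (-1.21), NUF2 (-1.19), HMMR (-1.12), ECT2 (-1.12), KIF14 (-1.05), KIF11 (-0.92) and SGOL2 (-0.86). With the offsets KIF14, KIF11 and SGOL2 no longer passed, and the other seven lay between -0.79 (NUF2) and -0.31 (SMC4).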

How the results depend on the processing

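For the 120 gene results given in full, 1661 of 1680 values under other settings kept their direction and their side of the threshold, 18 were no longer past it and 1 reversed. Leaving out 1 library accounted for 8 of the 18. The 120 results had the lowest p in their comparison, and many left-out libraries were outside the comparison tested, so agreement was favoured from the start. The other 10 and the reversed one all came from the GC and length offsets. Of recovery and interaction results, the offsets left 62 the same, 9 no longer past the threshold and 1 reversed. Of results between lines, 47 stayed the same and 1 did not. The reversed one was the interaction of SGOL2, at 0.12 with offsets and the replicate block. With these offsets 1 member was higher in WT recovery, 12 were negative in the interaction and 3 were lower in KO recovery than in WT recovery. With upper-quartile scaling the last count was 12. The cause of these shifts was not tested. When 1 library was left out, 3 to 12 members rose in WT recovery, 0 to 8 rose and 16 to 34 fell in KO recovery, 16 to 25 were negative in the interaction, and 3 to 9 were lower in KO heat shock.

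Without the replicate block, 8 members rose and 31 fell in WT recovery, 7 rose and 33 fell in KO recovery, and the interaction was positive in 24 and negative in 22. Over all 17471 genes these were 4442 and 4603, 3611 and 3788, and 5039 and 4960. With the replicate number as a block, 40 were higher and 5 lower in KO heat shock, and 37 higher and 7 lower in KO recovery. Over all genes these were 4751 and 4905, and 5550 and 5463. The pairing changed no count by over 1.5 times. With 2 libraries a group, small changes may be missed, and counts carry no molecular identifiers.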
